A study of Homo sapiens with 2 samples.

Results

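The genes described here are IL6ST, IL6R, LIF, LIFR, OSMR, SOCS2, SOCS3, SOCS4, STAT3 and JAK1, which encode receptors, a ligand, a kinase, a transcription factor and inhibitors of the interleukin 6 cytokine family. Their RNA was measured in Seg-1 cells on Affymetrix whole-genome expression arrays, on which each transcript is read by 1 or more probe sets (groups of short oligonucleotides summarised into 1 signal). The members were chosen by measured values of this same comparison, among them the disagreement between the probe sets of IL6ST, so every value below is a description, with no test. They are 10 of the 19775 genes that at least 1 probe set names alone. Every probe set annotated to exactly 1 of these symbols was used, 37 of the 41091 probe sets with a single symbol. There were 0 probe sets annotated to a member together with another gene.

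One culture received FGF-AS siRNA, which targets the antisense RNA of the fibroblast growth factor 2 locus, and the other a negative control siRNA without similarity to known genes. Each culture was read on 1 array. Both cultures were reverse transfected with Lipofectamine RNAiMAX and harvested after 72 hours. The siRNA was used at a final concentration between 25 and 200 nM, and the labels do not say which applies to which array. Per the labels, Seg-1 was once taken for an esophageal adenocarcinoma line and has since been identified as the lung line H460. No untransfected cells were part of the comparison, so anything that transfection itself changes in both cultures would not show. Since each group is a single array, the differences below have no replicates behind them and carry no p-value.

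Interleukin 6, leukemia inhibitory factor (LIF), oncostatin M and related cytokines signal through the shared receptor subunit gp130, the product of IL6ST. A ligand binds gp130 together with a further receptor, such as IL6R, LIFR or OSMR, and the complex activates the kinase JAK1 and then the transcription factor STAT3. STAT3 induces SOCS3, whose protein binds gp130 and JAK1 and shuts the signal down, so that receptor, kinase and inhibitor form a feedback loop. Airway epithelium and many carcinoma lines carry these receptors.

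The promoters of IL6ST and SOCS4 are shown first, because these are the members with a probe set at least 2-fold higher with FGF-AS siRNA. RefSeq promoter windows (GRCh38.p14) were at hand for 8 of the 10 members, 13 windows in all. The IL6ST window is chr5:55994964-55995213 on the minus strand, the 250 bases before the start, and it overlaps the first bases of the divergent noncoding gene IL6ST-DT. The SOCS4 window is chr14:55027100-55027235 on the plus strand, the 136 bases before the start that lie outside the neighbouring gene WDHD1. Capitals mark GGGCGG, the GC box, and CCAAT, the CCAAT box, on either strand, and no marked stretches overlap.
IL6ST: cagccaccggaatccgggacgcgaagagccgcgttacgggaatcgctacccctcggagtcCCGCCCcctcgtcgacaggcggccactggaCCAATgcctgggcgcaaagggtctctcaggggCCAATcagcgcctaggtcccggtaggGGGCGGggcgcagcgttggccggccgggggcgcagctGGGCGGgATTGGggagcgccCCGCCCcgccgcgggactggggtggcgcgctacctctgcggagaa
SOCS4: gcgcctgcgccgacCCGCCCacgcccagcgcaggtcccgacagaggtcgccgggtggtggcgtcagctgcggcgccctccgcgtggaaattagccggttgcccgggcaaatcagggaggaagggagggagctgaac

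The IL6ST window held 4 GC boxes and 3 CCAAT boxes, and 73.6% of its bases were G or C. The SOCS4 stretch held 1 GC box and no CCAAT box, and 70.0% of the bases in its full window of 250 bases were G or C. Of 35116 human promoter windows of 250 bases, 42.64% held a GC box and 32.01% held a CCAAT box, so both are common. The STAT element TTCNNNGAA, whose letters read the same on both strands, occurred in 6.57% of windows and in neither of these. Among the members it was found only for LIFR, in 2 of the 3 promoter windows at hand for that gene. It did not overlap the other motifs there. The third window, chr5:38556647-38556896, belongs to a start further downstream. The labels upstream and downstream below compare only the 2 starts with the element. The stretches below lie at chr5:38595552-38595580 and chr5:38557631-38557659 on the minus strand, inside LIFR as annotated, with the element (165 and 182 bases before the start) in capitals.
LIFR upstream start: ccattactagTTCCTTGAAccacaatcca
LIFR downstream start: gctttggagtTTCATCGAAaggtctttaa
Both SOCS3 windows lacked the element, which says only that these letters are not within 250 bases of those starts. A match is a description of the sequence and not a measured binding site.

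Across all 54613 probe sets other than Affymetrix controls, the highest deposited signals were 21359.6 (control) and 20791.3 (FGF-AS siRNA), and the medians 25.5 and 23.1. NUDT6, the gene that gives rise to FGF-AS, read 376.9 and 104.5 on one probe set and 267.0 and 77.8 on the other, lower with the siRNA against it. Differences are given as log2 ratios, computed after adding 6.1 to both signals, and a positive ratio means a higher signal with FGF-AS siRNA. A probe set counted as measured when the mean of its signals was at least 23.9, and as bright when that mean was at least 145.2. As a yardstick, the SD of one probe-set ratio was estimated from how far probe sets of the same gene lie apart, and was 0.36 for bright and 0.58 for dimmer probe sets. It covers differences within these 2 arrays and not differences between cultures.

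Epithelial keratin genes were bright on both arrays, KRT18 at 10152.5 and 9327.2 and KRT8 at 3475.7 and 3780.9 (control first), as was KRT19 (316.5 and 311.6), and EPCAM (34 and 43.8) lay near the minimum. CDH1, the epithelial cadherin, was below the minimum on average (0.9 and 18.4), as were the lung markers NKX2-1 (24.9 and 11.8) and SCGB1A1 (20.0 and 5.7). Of the lung surfactant and secretory markers, SFTPB (110.8 and 98.0), SFTPC (14.7 and 59.1) and NAPSA (31.9 and 44.0) passed it. Each marker is given by its brightest probe set. Fewer than all probe sets passed for SFTPC (1 of 5), SFTPB (2 of 4) and KRT19 (1 of 2). The same held for the fibroblast markers COL3A1 (3 of 5), COL1A1 (1 of 5) and DCN (1 of 7). The 5 epithelial markers summed to 13979.6 and 13481.9 and the 5 lung markers to 202.3 and 218.6. Of 4 leukocyte markers, CD14 (38.3 and 16.8) and CD3E (33.5 and 52.7) passed the minimum while PTPRC read 0.5 and 19, and the list summed to 80.8 and 93.9. The 6 fibroblast markers summed to 545.0 and 340.1, of which COL3A1 (316.4 and 104.6), COL1A1 (164.3 and 151.6) and DCN (42.5 and 31.0) passed the minimum. Their part in the results below was not tested, and in such bulk RNA fewer cells with a transcript and less of it per cell cannot be told apart.

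Of the 37 member probe sets, 29 were measured and 20 were bright. Among the 29, 2 were at least 2-fold higher with FGF-AS siRNA, 1 of IL6ST and 1 of SOCS4, and 2 were at least 2-fold lower, 1 of JAK1 and 1 of IL6R. Over all 23222 measured single-symbol probe sets, 1.94% reached 2-fold in the upward and 5.33% in the downward direction. Over the 12241 bright ones the shares were 0.972% and 2.57%, and 2 and 1 of the 20 bright member probe sets lay past 2-fold. Because these ratios chose the genes, nothing is read from the members' counts. Most member probe sets differed little, with 22 of 29 (75.9%) within 1.5-fold, against 77.4% of all measured probe sets. Their median log2 ratio was 0.03, and that of all measured probe sets was -0.07.

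**Figure D1:**
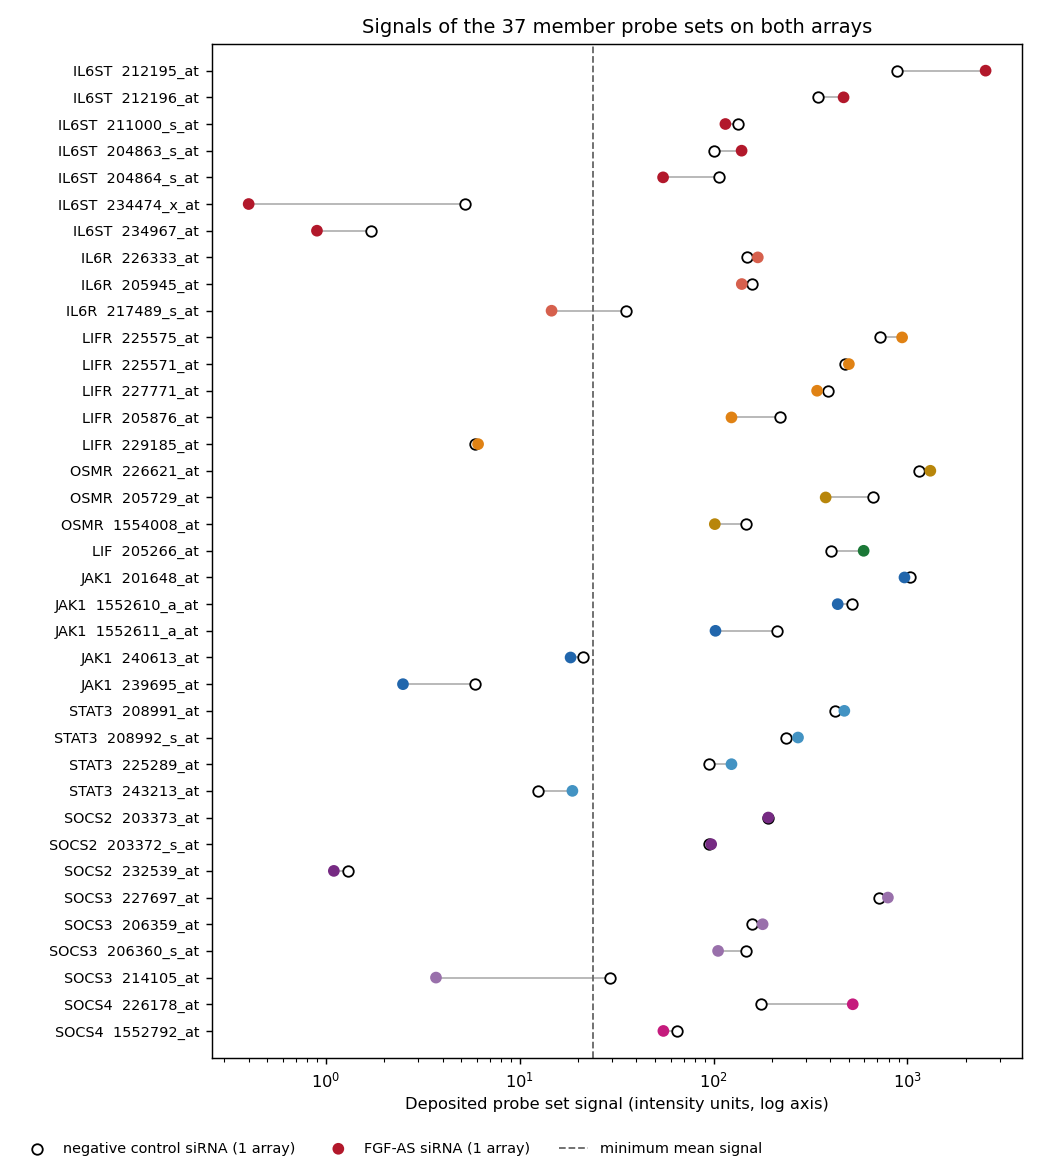
Deposited signals of all 37 member probe sets (intensity units, logarithmic axis), 1 row per probe set: open circles are the negative control siRNA array, filled circles (coloured by gene) the FGF-AS siRNA array, 1 array each. The dashed line is the minimum mean signal of 23.9. IL6ST 212195_at (888.4 to 2530.3) and SOCS4 226178_at (176.0 to 522.3) are the longest lines to the right, and the longest lines to the left belong to probe sets under or near the minimum.

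IL6ST encodes gp130, the subunit that all cytokines of this family share. Its probe set 212195_at gave 888.4 under control siRNA and 2530.3 under FGF-AS siRNA, or 285% of control, a log2 ratio of 1.5. That is 4.2 times the probe set SD and lies at percentile 99.8 of bright probe sets. The other bright probe set, 212196_at, read 345.4 and 468.4, a log2 ratio of 0.43, or 1.2 times the SD. The dimmer 204863_s_at gave nearly the same ratio, 0.45, from signals of 100.4 and 139.5. The remaining measured probe sets pointed the other way. Probe set 211000_s_at read 134.3 and 115.1 (log2 ratio -0.21), which is within the SD, and 204864_s_at read 106.1 and 54.9 (-0.88), which is 1.5 times the SD for dim probe sets. Probe sets 234474_x_at (5.2 and 0.4) and 234967_at (1.7 and 0.9) were near the bottom of the signal range on both arrays.

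The IL6ST probe sets thus spanned 2.38 on the log2 scale between the highest and the lowest ratio. Among the 278 genes with 5 measured probe sets the median span was 0.92, and 9 genes had a wider one. An increase of 2-fold or more rested on 1 of 5 measured probe sets, 3 of 5 read higher, and the median of the 5 was 0.43. Whether IL6ST mRNA as a whole differed between the cultures is therefore not settled by these arrays. The annotation pairs 204864_s_at with a RefSeq mRNA and the 2 bright probe sets with other accessions. Where each probe set lies on the transcript was not analysed here.

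IL6R encodes the receptor that hands interleukin 6 to gp130. Probe set 226333_at gave 148.7 under control siRNA and 169.1 under FGF-AS siRNA (log2 ratio 0.18). Probe set 205945_at read 158.7 and 139.8 (-0.18). These bright probe sets differed from 0 by the same amount in opposite directions, by less than the SD. The third, 217489_s_at, was dim, at 35.3 and 14.6, and its ratio of -1.0 lay exactly at the 2-fold limit. It was lower than the minimum on the FGF-AS siRNA array, and its ratio ran from -1.22 to -0.61 with other offsets and scalings.

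LIFR encodes the receptor of LIF, which pairs with gp130. Its brightest probe set, 225575_at, read 722.4 and 938.6 (control first, log2 ratio 0.37). Probe set 225571_at read 479.1 and 498.8 (0.06), and 227771_at read 391.2 and 342.0 (-0.19). The fourth measured probe set, 205876_at, read 221.0 and 123.7, a log2 ratio of -0.81 and 2.3 times the SD, at percentile 4.4 of bright probe sets. So 2 probe sets read higher and 2 lower, and 3 of them lay close to or within the SD of 0. The probe set 229185_at was dim on both arrays, at 5.9 and 6.1.

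OSMR encodes the receptor subunit that pairs with gp130 to bind oncostatin M. Probe set 226621_at, the brightest, gave 1150.0 under control siRNA and 1312.5 under FGF-AS siRNA (log2 ratio 0.19). Probe set 205729_at read 664.2 and 378.6, or 57.0% of control (-0.80, 2.2 times the SD). Probe set 1554008_at read 147.7 and 101.5 (-0.52, within the SD for dim probe sets). As for LIFR, the lower bright probe set was the one annotated to the RefSeq mRNA.

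LIF, the ligand of LIFR, had a single probe set, 205266_at. It gave 403.9 under control siRNA and 594.4 under FGF-AS siRNA, or 147% of control. The log2 ratio of 0.55 is 1.5 times the SD and lies at percentile 93.9 of bright probe sets. It was below 2-fold, and with no second probe set it has no internal check.

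JAK1, the tyrosine kinase bound to gp130, was lower on all 3 of its measured probe sets, by unequal amounts. Probe set 201648_at read 1036.5 and 965.4 (control first, log2 ratio -0.10), and 1552610_a_at read 515.5 and 436.8 (-0.24). Both are within the SD. Probe set 1552611_a_at read 213.6 and 102.3, a ratio of -1.02 that is 2.9 times the SD and just past 2-fold. Of the probe sets below the minimum, 240613_at read 21.3 and 18.3 and 239695_at read 5.9 and 2.5.

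STAT3, the transcription factor that JAK1 activates, was slightly higher on all 3 of its measured probe sets. Probe set 208991_at gave 424.5 under control siRNA and 472.6 under FGF-AS siRNA (log2 ratio 0.15). Probe set 208992_s_at read 235.6 and 272.6 (0.21), and 225289_at read 94.3 and 123.7 (0.37). Each ratio was smaller than the SD, and the span of 0.22 was at percentile 11.8 among the 1664 genes with 3 measured probe sets. The dim 243213_at read 12.5 and 18.7. These arrays measure mRNA, so the phosphorylation that activates STAT3 protein was not measured.

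SOCS proteins carry an SH2 domain that binds phosphorylated tyrosine and a SOCS box that recruits a ubiquitin ligase. SOCS2, best known as a brake on growth hormone signalling, hardly differed between the arrays. Probe set 203373_at read 190.3 and 191.5 (control first, log2 ratio 0.01), and 203372_s_at read 95.2 and 97.2 (0.03). Their span of 0.02 was narrower than that of 3223 of the 3331 genes with 2 measured probe sets. The third, 232539_at, read 1.3 and 1.1.

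SOCS3, the feedback inhibitor of gp130 signalling, was close to its control level on its bright probe sets. Probe set 227697_at read 710.6 and 792.9 (log2 ratio 0.16), and 206359_at read 157.5 and 179.1 (0.18). Probe set 206360_s_at went the other way, at 146.3 and 105.5 (-0.45). None of these exceeded the SD for its brightness. Probe set 214105_at read 29.3 and 3.7 (-1.85), but its mean was below the minimum and it was not counted.

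SOCS4, a family member linked to the control of epidermal growth factor receptor signalling, had the highest single ratio of the members. Its probe set 226178_at gave 176.0 under control siRNA and 522.3 under FGF-AS siRNA, or 297% of control. The log2 ratio of 1.54 is 4.3 times the SD and lies at percentile 99.9 of bright probe sets. Its other probe set, 1552792_at, annotated to the RefSeq mRNA, read 64.4 and 55.1 (-0.20), within the SD. The span of 1.74 compares with a median of 0.35 over the 3331 genes with 2 measured probe sets, of which 80 had a wider span. For IL6ST, other probe sets also read higher but none by 2-fold, whereas the only other measured probe set of SOCS4 read slightly lower.

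**Figure D2:**
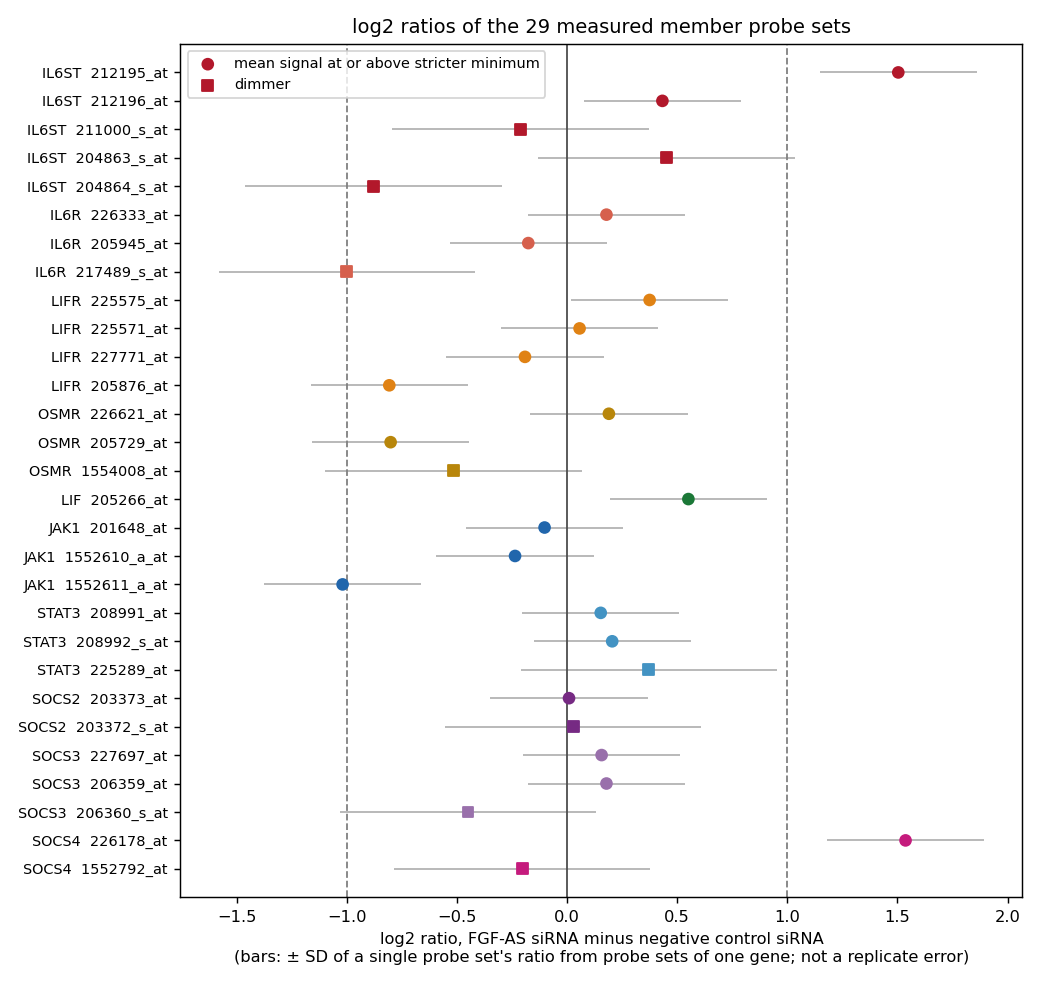
log2 ratios (FGF-AS siRNA minus negative control siRNA, 1 array each) of the 29 measured member probe sets, grouped by gene. Circles are bright and squares dimmer probe sets, bars are ± the SD of one ratio (0.36 or 0.58), and dashed lines mark 2-fold. IL6ST 212195_at (1.5) and SOCS4 226178_at (1.54) stand to the right of the 2-fold line, while other probe sets of both genes lie to the left of 0.

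Members differed in how far their probe sets agreed. Of the 9 members with 2 or more measured probe sets, 6 had probe sets on both sides of 0 (IL6ST, IL6R, LIFR, OSMR, SOCS3 and SOCS4). Of all 6155 such genes 50.8% did, a share not matched for the number of probe sets, since 3331 of them had only 2. IL6ST and SOCS4 had spans at percentiles 96.4 and 97.6 of genes with as many probe sets. The members were chosen by these data, the disagreement within IL6ST included, so these ranks are a description only. IL6R (1.18), LIFR (1.18), OSMR (0.99), JAK1 (0.92) and SOCS3 (0.63) lay between percentiles 52.2 and 83.3, and STAT3 and SOCS2 were among the narrow ones. Taken by its brightest probe set alone, each of the members except JAK1 had a log2 ratio above 0, whereas only 16 of their 29 measured probe sets did. For the 6 members with probe sets on both sides of 0, the direction depends on the probe set chosen.

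**Figure D3:**
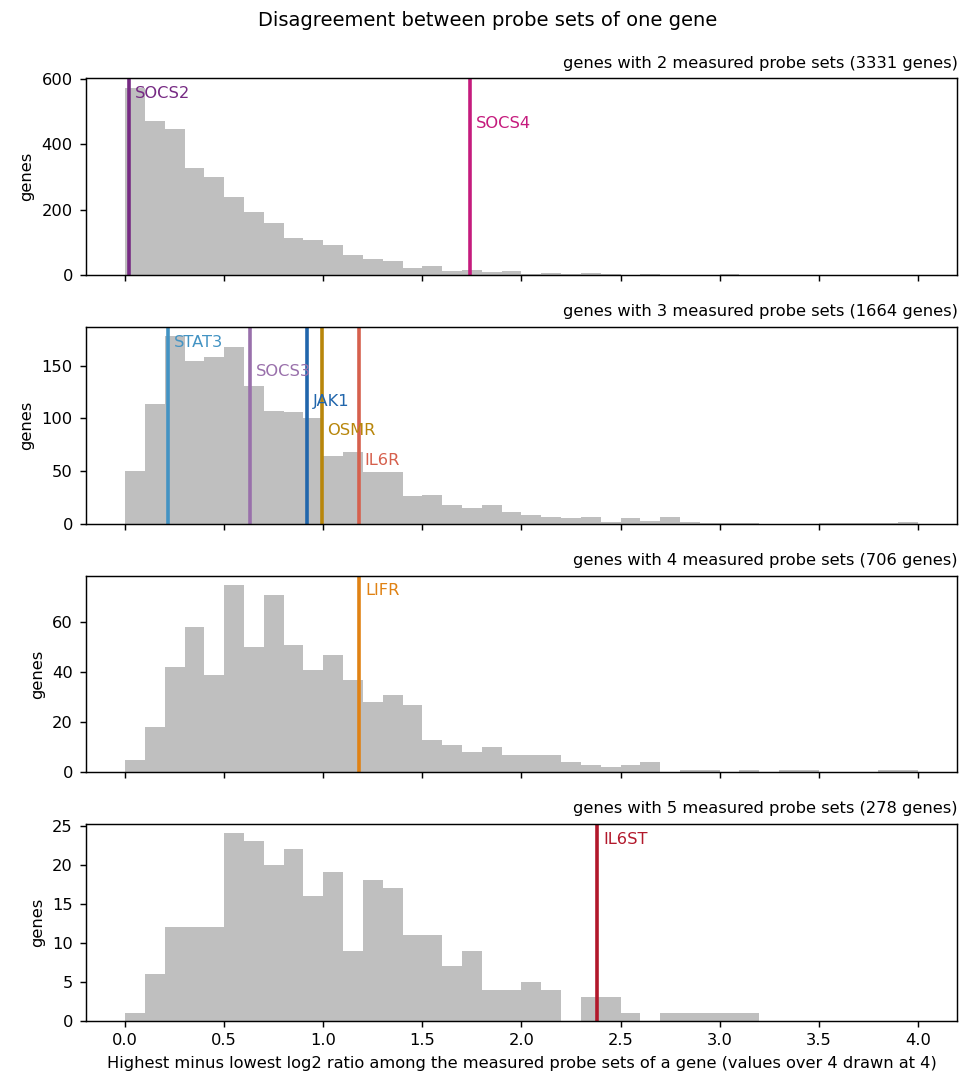
Histograms of the highest minus the lowest log2 ratio among the measured probe sets of a gene, for all genes with 2, 3, 4 or 5 measured probe sets, with the members as coloured lines. IL6ST (2.38) and SOCS4 (1.74) lie in the right tails, and SOCS2 (0.02) and STAT3 (0.22) at the left.

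The kind of sequence a probe set is annotated to moved with these differences among the members, as was seen after the values were known. For 8 members, measured probe sets annotated to a RefSeq mRNA and to another accession could both be averaged. Probe sets without an accession were left out, among them LIFR 225575_at and IL6ST 204863_s_at. The RefSeq mRNA value minus the other value was -1.74 for SOCS4, -1.45 for IL6ST, -0.74 for LIFR, -0.64 for OSMR, -0.62 for SOCS3 and -0.02 for SOCS2. It was above 0 for JAK1 (0.33) and IL6R (0.24). Over all 2948 genes with both kinds, the RefSeq mRNA value was lower in 51.2%, and the median difference was -0.01. The RefSeq mRNA probe set was also the dimmest measured one of IL6ST, LIFR, SOCS3 and SOCS4. For these members the kind of accession and the brightness cannot be told apart. The part of either in the members' ratios was not tested.

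Other genes of the pathway were taken from 11 lists of 97 genes. For 90 of them a single-symbol probe set was at hand, 68 were measured by their brightest probe set, and the other 7 were not analysed here. Of the 68, 1 reached 2-fold upward and 1 downward, against 2.05% and 2.72% of all 12352 measured genes. Their median log2 ratio was 0.06, with 38 above 0, and that of all measured genes was -0.02.

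Of the other ligands, 2 of 9 were measured, and both were somewhat lower. IL6, the cytokine that names the family, gave 418.7 under control siRNA and 362.8 under FGF-AS siRNA (log2 ratio -0.20). IL27, which encodes a subunit of interleukin 27, read 110.8 and 81.8 (-0.41). IL11, OSM, CNTF, CTF1 and EBI3 read below the minimum, and with no minimum the median of the ligands changed from -0.31 to 0.14. By their brightest probe sets the other receptor subunits hardly differed, from IL27RA at 0.06 to CNTFR, the ciliary neurotrophic factor receptor, at 0.12 (73.0 and 79.9). Their median of 0.10 became -0.23 when all measured probe sets of each gene were averaged.

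Among 7 other JAK and STAT genes, 5 were below 0, with a median of -0.14 and none past 2-fold. JAK3, a kinase of lymphoid cytokine receptors, was dim at 32.3 and 70.1 (0.99), and its other measured probe set gave -0.35. STAT4, a factor activated by interleukin 12, was lowest at 219.6 and 181.3 (-0.27). Of the 5 other SOCS family genes, 3 were above 0 and none was past 1.5-fold. They ranged from CISH, the founding family member, at 70.6 and 52.1 (-0.40) to SOCS6 at 370.3 and 444.0 (0.26). The second probe set of CISH was dim and opposite, at 10.1 and 51.3, and the other measured probe sets of SOCS6 gave -0.11 and -0.39. The SOCS box partners, which build the ubiquitin ligase, lay between -0.07 (the scaffold CUL5, 765.4 and 728.0) and 0.33 (elongin C, ELOC, 2616.0 and 3288.8).

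Inhibitors of JAK-STAT signalling other than SOCS proteins had a median of 0.02 over 7 measured genes. They reached from PIAS1, an inhibitor of activated STATs, at -0.26 (251.9 and 209.7, with 0.34 and -0.51 on other probe sets) to PTPN2, a phosphatase that acts on JAK1 and STAT proteins, at 0.48 (349.4 and 488.4). The 5 genes that link gp130 to the RAS pathway had a median of 0.27, from the docking protein gene GAB1 (54.6 and 40.8, -0.37) to the adaptor gene SHC1 (5602.5 and 7401.9, 0.40, with 0.00 on its other probe set). PTPN11, which encodes the phosphatase SHP2 that binds gp130 at the same place as SOCS3, was singled out after its values were seen, since its 6 measured probe sets ran from -2.08 to 1.11. The brightest read 2453.5 and 2980.5 (0.28). Of 4 genes for trafficking and shedding of the receptors, the ubiquitin ligase gene CBL was highest by the brightest probe set (217.1 and 308.3, 0.49) and RNF41 lowest (336.7 and 256.7, -0.38). The 4 other measured probe sets of CBL gave 0.43, -0.18, -0.41 and -2.29, while all 3 of RNF41 were below 0. The median of these 4 was 0.00, or -0.47 with probe sets averaged.

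Genes that STAT3 is known to induce did not move one way. Of 15 measured ones, 8 were above 0 and 7 below, and their median was 0.06, or -0.23 when all measured probe sets of each gene were averaged. HIF1A, the hypoxia-inducible transcription factor, was the highest at 2497.4 and 4351.4 (log2 ratio 0.80), and FOS, a growth-induced transcription factor, was the lowest at 73.0 and 50.5 (-0.48). By its brightest probe set, HIF1A was the only one past 1.5-fold, and it had only 1 probe set. CCND1 and MCL1 were singled out after their values were seen. Both probe sets of CCND1 were bright and lower (-0.46 and -0.77). The 5 measured probe sets of MCL1 ran from -1.62 to 0.08, with 0.06 on the brightest. Of the acute phase genes, liver-type targets of interleukin 6, 4 of 14 were measured and all 4 were below 0, with a median of -0.45. CP, which encodes the copper carrier ceruloplasmin, read 185.5 and 84.9 (-1.07), and its 4 measured probe sets gave -0.30, -0.90, -1.07 and -1.57. It was the gene at least 2-fold lower among the 68. LCN2, an iron-scavenging lipocalin gene, was the highest of the 4 at 39.3 and 28.9 (-0.38). Of the 4, only CP had a ratio beyond the SD of 0.58 for dimmer probe sets.

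Other cytokine receptors that couple to JAK kinases were mostly above 0 by their brightest probe sets, many of them by little. Of 12 measured genes, 10 were above 0 with a median of 0.24, compared with 48.1% of all measured genes above 0. IL10RB, a subunit shared by the receptors of interleukin 10 and interleukin 22, read 107.8 and 227.6 on its only probe set (log2 ratio 1.04) and was the gene at least 2-fold higher among the 68. The erythropoietin receptor gene EPOR (156.2 and 271.0, 0.77) and the interleukin 7 receptor gene IL7R (53.2 and 96.1, 0.79) were past 1.5-fold on their brightest probe sets. Apart from IL10RB, EPOR and IL7R, every gene of the list lay within the SD of 0 by its brightest probe set. The 3 other measured probe sets of EPOR gave 0.15, -0.55 and -0.65, and the other one of IL7R gave 0.23. IL13RA1, a receptor subunit for interleukin 13, was the lowest at 820.4 and 724.0 (-0.18), and its other measured probe sets gave -0.49, -0.57 and -0.73. Over the alternative settings the median of this list stayed between 0.15 and 0.33.

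**Figure D4:**
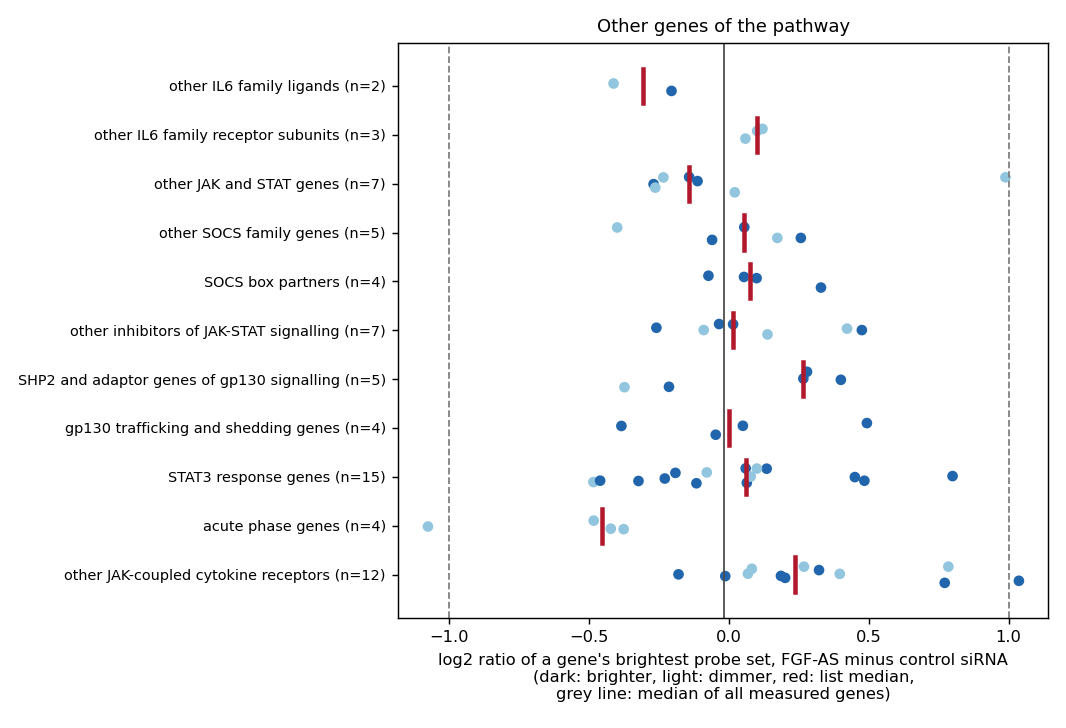
log2 ratios (FGF-AS siRNA minus negative control siRNA) of the 68 measured genes in 11 lists, each gene by its brightest probe set. Dark points are bright and light points dimmer probe sets, red bars are list medians, the grey line is the median of all measured genes (-0.02) and dashed lines mark 2-fold. Points past 2-fold are IL10RB (1.04) and CP (-1.07).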

How the data were processed

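Total RNA of 2 cultures, 1 per group, was labelled with biotin from an oligo-dT primer, per the labels' protocols. The authors deposited 1 linear probe set intensity per array for 54675 probe sets, 62 of them Affymetrix controls, which were left out. GCOS and MAS5 are the tools listed, without versions, in the submitters' processing notes, and how the arrays were scaled against each other is unknown, so small shifts common to all genes are not interpretable. Detection calls were not used. Symbols came from GEO's platform annotation, looked up by gene identifier in RefSeq (GRCh38.p14), which covered 41037 of 41091 single-symbol probe sets and changed 0.

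As offset, 6.1 was added to each signal (the 25th percentile over both arrays). The minima of 23.9 and 145.2 are the 50th and 75th percentiles of the mean signal. The SDs were pooled within 3050 genes for bright and 2365 for dimmer measured probe sets. The offset understates changes of dim genes. In the pathway lists a gene was represented by its brightest probe set. The text names every member, the highest and lowest gene of each list, genes past 2-fold, markers, and NUDT6. EPOR, IL7R, PTPN11, MCL1 and CCND1 were added after their values were seen, as were second probe sets. The members and lists were chosen with earlier results of these data known. Alternatives were other offsets (1 and 24.4), median centring, quantile normalization, loess, other minima, leaving out probe sets ending in _s_at or _x_at, and the mean over probe sets. The procedure was tested on simulated data. Python 3.11.15, pandas 2.3.3 and statsmodels 0.14.6 were used.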

Additional observations from a re-analysis of the deposited data

How the results depend on the processing

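The members' 2 probe sets at least 2-fold higher stayed 2 under all 9 alternatives run on probe sets (offsets, scalings, minima and leaving out _s_at and _x_at). The 2 at least 2-fold lower became 0 with the offset of 24.4, median centring, quantile normalization and loess. They became 1 at the stricter minimum, with the minimum reached on both arrays, and without _s_at and _x_at probe sets, and 3 with no minimum. JAK1 1552611_a_at ran from -1.06 to -0.90. None of the 29 measured member ratios changed sign under another offset or scaling, and all 145 such values moved by less than the probe set SD. Medians of 6 lists took both signs over the alternatives: other ligands, other receptor subunits, SOCS box partners, other inhibitors, trafficking genes and STAT3 response genes. Scaling altered the balance over all probe sets: of measured probe sets past 2-fold, 26.7% were higher, and 34.7% after median centring, 41.6% after quantile normalization and 38.7% after loess. The number of arrays and the dim signals limit the precision, and 8 member probe sets had no usable level.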

Other observations

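Noncoding genes named after the members had 5 probe sets, all below the minimum signal. LIF-AS2 gave 27.5 under control siRNA and 4.1 under FGF-AS siRNA, and SOCS2-AS1 read 17.8 and 2.2. IL6ST-DT, which starts beside the IL6ST promoter, read 12.7 and 11.6, IL6R-AS1 read 0.5 and 0.9, and the probe set shared by LIFR-AS1 and MIR3650 read 5.8 and 8.8. Such low signals cannot be told from background here.

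The brightest probe set of a gene tended to have a higher ratio than the gene's other measured probe sets. Over 6155 genes its log2 ratio was higher than the mean of the others in 60.6%, with a median difference of 0.11, and for the members in 7 of 9, with a median of 0.69. When the brightest was picked on the control array alone, the share over all genes was 54.9% and the median 0.05, and for the members again 7 of 9 with a median of 0.53. Of 10870 measured probe sets that were not the brightest of their gene, 8.3% were at least 2-fold lower and 1.81% at least 2-fold higher. Both summaries were chosen after the data were seen.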
